A study of Mus musculus with 12 samples.

Results

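Cardiac progenitor cells (CPCs) are commonly recognised by a short set of genes, and 5 of them were read here in adult cardiomyocytes (ACM): Gfra2, Kit, Ly6a, Abcg2 and Isl1. They were taken by name from a table of 21493 genes, and all 5 were listed for each of the 12 libraries. The ACM came from hearts of 3-month-old mice that either carry desmin (Des+/+) or lack it (Des-/-), and that had either not swum (non-swim) or undergone swimming exercise (swim), with 3 libraries in each of the 4 groups. Desmin is the muscle-specific intermediate filament protein. The study's methods use Des+/+ and Des-/- as short names for mice that also carry an alphaMHC-GFP reporter on both alleles, on a 129SV background. They state that animals were used regardless of sex, and give each library as cells pooled from 3 to 4 mice. By the labels, the cells were obtained by perfusing the heart with trypsin and collagenase D. Each library is therefore a pool and not 1 animal, and a p-value measures the spread between pools. The study's methods state no sorting of these cells. Marker genes of fibroblasts, macrophages and endothelial cells were counted in each library, so RNA of other heart cells was counted with that of the cardiomyocytes.

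The 5 genes have distinct roles. Gfra2 is a receptor held in the membrane by a lipid anchor, which binds neurturin and signals through the tyrosine kinase Ret; it has been used to find progenitors in the embryonic heart. Kit is the receptor tyrosine kinase for stem cell factor and is also the growth factor receptor of mast cells. Ly6a (Sca-1) is a small lipid-anchored surface protein of stem cells that many adult endothelial cells also carry, and Abcg2 is an efflux pump whose dye export defines the "side population" and which capillary endothelium expresses as well. Isl1 is a LIM-homeodomain transcription factor of the second heart field, restricted in the adult heart mainly to the pacemaker region and nerve cells.

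All coordinates are on GRCm38, 1-based. Gfra2 (ENSMUSG00000022103) spans chr14:70890120-70979838 on the plus strand with 3539 exonic bases, Kit (ENSMUSG00000005672) chr5:75574916-75656722 on the plus strand with 8911, and Abcg2 (ENSMUSG00000029802) chr6:58584523-58695676 on the plus strand with 8153. On the minus strand lie Ly6a (ENSMUSG00000075602) at chr15:74994877-74998031 with 1205 exonic bases and Isl1 (ENSMUSG00000042258) at chr13:116298281-116309689 with 3959. None of the 5 shares exonic bases with another annotated gene. In Ly6a, 19 of 1311 transcript windows of 100 bases (1.45%) were identical to Ly6c1, so a small number of its reads may have been left uncounted or shared between these 2 genes; the other 4 members had no identical window in another gene.

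The libraries held between 4320819 and 12072443 reads in genes, and the Des-/- swim group was the shallowest at 4320819 to 6521963. Des itself had a mean of 2367 ± 1137 CPM (counts scaled to a common library size with TMM factors, SD over 3 libraries) in Des+/+ non-swim and of 1273 ± 336 in Des+/+ swim. It stood at 59.5 ± 11.3 in Des-/- non-swim and 96.5 ± 4.71 in Des-/- swim, so every Des-/- library was below every Des+/+ library. The summed level of 10 cardiomyocyte genes (among them Myh6, Tnnt2 and Ryr2) was 55674 to 87590 CPM in Des+/+ non-swim, 28727 to 48657 in Des+/+ swim, 5613 to 24783 in Des-/- non-swim and 15072 to 25531 in Des-/- swim. Des-/- non-swim replicate 3 stood apart, with the lowest cardiomyocyte sum (5613) and the highest fibroblast sum (43764) and macrophage sum (2156) of the 12 libraries. Uniquely placed reads that fell in no gene made up 34.0% to 39.3% in Des+/+ non-swim, 45.9% to 50.4% in Des+/+ swim, 34.2% to 52.3% in Des-/- non-swim and 57.2% to 64.5% in Des-/- swim, so in each genotype this share was higher in every swim library.

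Per kilobase of exon, the members kept the same order in each of the 12 libraries. Ly6a was the most abundant at a mean of 547 CPM per kb, above 99.6% of the 13157 tested genes with an exon length. Abcg2 followed at 12.5 CPM per kb (above 68.6% of these genes), then Kit at 3.43 (above 32.8%) and Gfra2 at 1.84 (above 21.1%). Ly6a was above Abcg2, Abcg2 above Kit, and Kit above Gfra2 within 12 of 12 libraries. The ranges of Kit (lowest 2.17 CPM per kb) and Gfra2 (highest 3.46) overlapped when libraries of different groups were set side by side, while those of the other neighbours did not. The ligands were more abundant than their receptors: Kitl, which encodes stem cell factor, averaged 74.7 CPM per kb, and Nrtn, which encodes neurturin, 16.3, with Ret at 3.52.

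Isl1 was at the limit of detection. It had 1 read in Des+/+ non-swim replicate 2, 2 reads in Des-/- non-swim replicate 1 and 2 reads in Des-/- swim replicate 3, and no read in the other 9 libraries. The 5 reads among 101572472 reads in genes give 0.0492 CPM with an exact 95% Poisson interval of 0.0160 to 0.115, which covers counting error only. The 3 Des+/+ swim libraries had 0 reads among 25735441, which allows a level of up to 0.117 CPM (3 reads). Isl1 did not pass the filter on low counts and no change of it could be detected at this depth. Among the genes that share the early heart program, Mesp1, the factor of the first cardiac mesoderm, had no read in any library, which allows up to 0.0295 CPM over all 12.

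**Figure D1:**
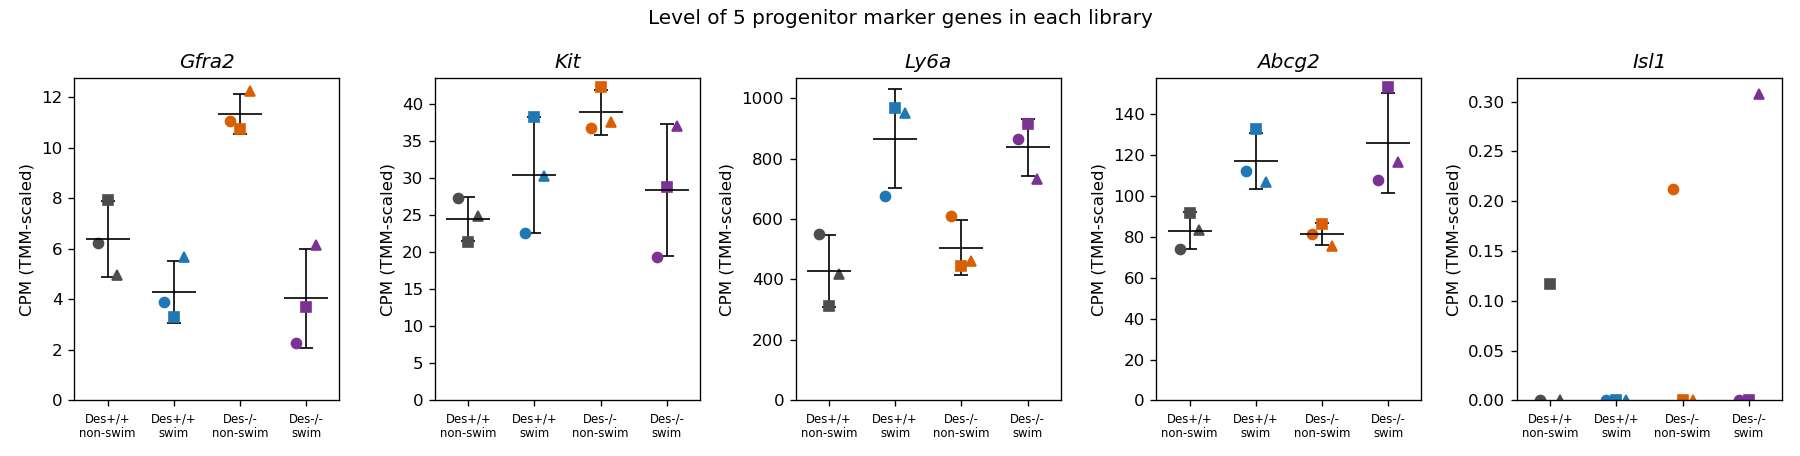
Level of Gfra2, Kit, Ly6a, Abcg2 and Isl1 in CPM (TMM-scaled, linear axis from 0) in each of 12 libraries; circles, squares and triangles are replicates 1, 2 and 3, and bars give the group mean ± SD (n = 3; not drawn for Isl1, which had a read in 3 libraries). Gfra2 in Des-/- non-swim (10.8 to 12.2) lies above the other 9 libraries, and Ly6a and Abcg2 lie higher in the swim libraries of each genotype than in its non-swim libraries.

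Without swimming, the comparison of Des-/- with Des+/+ asks how loss of desmin goes together with the marker genes in the basal state. Gfra2 was at 6.25, 7.95 and 4.96 CPM in the 3 Des+/+ libraries and at 11.1, 10.8 and 12.2 CPM in the 3 Des-/- libraries. Kit was at 27.3, 21.4 and 24.9 CPM in Des+/+ and at 36.8, 42.4 and 37.6 CPM in Des-/-. For both receptors each Des-/- library lay above each Des+/+ library. The log2 difference was 0.83 (SE 0.34) for Gfra2, a 1.78-fold higher level, with an adjusted p of 0.0844 in edgeR's quasi-likelihood test with Benjamini-Hochberg adjustment over 13158 genes. That of Kit was 0.66 (SE 0.24), a 1.58-fold higher level, with an edgeR adjusted p of 0.0506. Neither passed the threshold of 0.05. More cells of a type and more RNA per cell cannot be told apart in such bulk libraries.

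Ly6a and Abcg2 showed no such separation in the basal state. Ly6a was at 551, 314 and 419 CPM in Des+/+ and at 610, 446 and 461 CPM in Des-/-, and Abcg2 at 74.1, 91.9 and 83.3 CPM against 81.6, 86.4 and 75.7 CPM. The groups overlapped for both genes. The log2 difference of Ly6a was 0.24 (SE 0.23, edgeR adjusted p = 0.461), and that of Abcg2 -0.03 (SE 0.16, edgeR adjusted p = 0.891), with a sign that turned to 0.07 under upper-quartile scaling, 0.23 with no scaling beyond library totals and 0.03 with no filter.

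In this comparison edgeR called 0 of the 4 tested members, against 32.0% of all genes tested. At an unadjusted p under 0.05 the count was 2 of 4 (Gfra2 and Kit), against 43.7% of all genes, and the groups did not overlap for 2 of 4, against 47.9%. The adjusted p of Kit lay just above the threshold. The study's own filter (log2 change of at least 0.6, unadjusted p under 0.05, mean count of at least 20) was applied here to edgeR results, where the study used DESeq2. It was passed by 2 of 4, against 32.0%. DESeq2 called both Kit (adjusted p = 0.0301) and Gfra2 (adjusted p = 0.0399), against 36.4% of all genes. An edgeR fit of the 6 non-swim libraries alone also called both (adjusted p = 0.0223 and 0.0408), against 26.5%.

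Genes of cardiomyocytes and of other cell types moved in the same comparison. Of 10 cardiomyocyte genes, 10 were called lower in Des-/- without swimming, against 18.0% of all genes. Their median log2 difference was -2.21. Of 11 fibroblast genes, 10 were called higher in Des-/- without swimming (14.0% of all genes were called higher and 18.0% lower), with a median log2 difference of 1.45 against 0.04 over all genes, and their summed level was 6277 to 7616 CPM in Des+/+ and 12981 to 43764 CPM in Des-/-. Of 10 macrophage genes, 8 were called higher, with sums of 135 to 203 CPM and 261 to 2156 CPM. Of 11 endothelial genes none was called by edgeR, with sums of 9073 to 11088 CPM and 7734 to 12118 CPM; no fibroblast, macrophage or endothelial marker was at 0 in any library. The part of these cells in the levels of Gfra2 and Kit was not tested. Without replicate 3 of both Des-/- groups, the log2 difference was 0.85 (SE 0.31, edgeR adjusted p = 0.0599) for Gfra2 and 0.76 (SE 0.24, edgeR adjusted p = 0.0361) for Kit, and Kit then passed the threshold, as did 28.0% of all genes.

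Mast cells depend on Kit, and most genes that define them were near the detection limit. Cpa3, the mast cell carboxypeptidase, was at 0.354 to 0.701 CPM in Des+/+ non-swim and 0.106 to 1.70 CPM in Des-/- non-swim. The chymase Cma1 was at 0.236 to 0.632 and 0.425 to 1.81 CPM, both far below Kit. Hdc, the histamine-forming enzyme on the same list, was counted at 4.24 to 5.95 CPM in Des+/+ non-swim and 8.61 to 9.78 CPM in Des-/- non-swim, without overlap (log2 0.84, SE 0.44, edgeR adjusted p = 0.162). The sum of the 8 mast cell genes other than Kit was 77.3 to 102 CPM in Des+/+ non-swim and 63.6 to 119 CPM in Des-/- non-swim, and most of it came from Gata2 (69.8 to 93.8 and 50.9 to 106 CPM), a transcription factor that endothelial cells also express. Of the 4 genes tested on the full list of mast cell genes, which includes Kit, edgeR called 0, against 32.0% of all genes. The part of mast cells in the level of Kit was not tested. Gfra2 is also made by nerve cells: the sum of 9 neuron genes was 15.1 to 19.2 CPM in Des+/+ non-swim and 18.3 to 36.4 CPM in Des-/- non-swim, and that of 8 Schwann cell genes 47.5 to 71.2 and 48.9 to 58.1 CPM. Of 5 neuron genes tested edgeR called 2 higher (Prph, 0.943 to 1.87 and 4.30 to 11.1 CPM, and Tubb3, 0.234 to 0.825 and 1.132 to 6.65 CPM) and 1 lower (Dbh, 3.42 to 4.69 and 0.612 to 1.47 CPM). Of 8 Schwann cell genes edgeR called 0. Of all genes, 14.0% were called higher and 18.0% lower. The part of nerve cells in the level of Gfra2 was not tested.

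**Figure D2:**
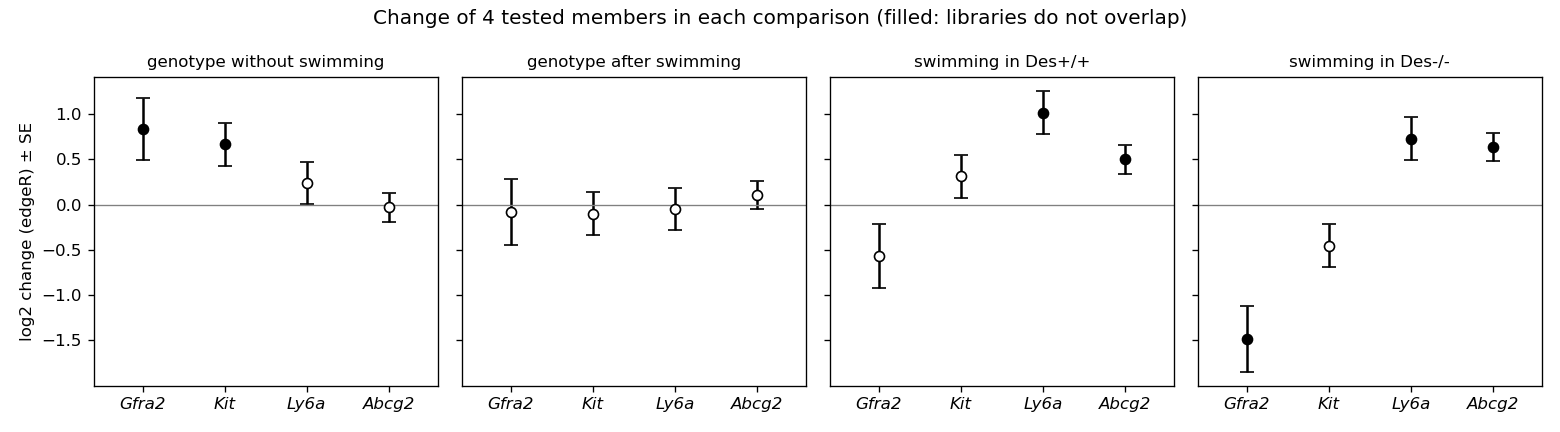
Log2 change with its SE (edgeR, 12 libraries) of Gfra2, Kit, Ly6a and Abcg2 for Des-/- against Des+/+ without and after swimming, and for swim against non-swim in each genotype; filled points mark changes whose 2 groups of 3 libraries do not overlap. Gfra2 and Kit lie above 0 for genotype without swimming (0.83 and 0.66), and after swimming the 4 genes lie between -0.10 and 0.10.

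After swimming, the comparison of Des-/- with Des+/+ asks the same under stress. Gfra2 was at 3.90, 3.32 and 5.69 CPM in Des+/+ and at 2.28, 3.72 and 6.16 CPM in Des-/-. Kit was at 22.7, 38.3 and 30.3 CPM against 19.3, 28.9 and 37.1 CPM. Ly6a was at 676, 968 and 952 CPM against 865, 915 and 732 CPM, and Abcg2 at 112, 133 and 107 CPM against 108, 154 and 116 CPM. All 4 overlapped between the genotypes, and no Des-/- swim library stood above or below the range of Des+/+ swim for every member.

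The log2 differences after swimming were -0.08 (SE 0.37) for Gfra2, -0.10 (SE 0.24) for Kit, -0.05 (SE 0.23) for Ly6a and 0.10 (SE 0.16) for Abcg2, with edgeR adjusted p-values of 0.691 to 0.909. The first 3 turned above 0 with no scaling beyond library totals (0.07, 0.04 and 0.10), and Gfra2 and Ly6a also under upper-quartile scaling (0.01 and 0.05), so these members have no settled direction. Of the 4 tested members, edgeR called 0, against 10.6% of all genes; 0 were under an unadjusted p of 0.05, against 30.5%, DESeq2 called 0, against 17.7%, 0 were without overlap, against 35.9%, and 0 passed the study's filter, against 17.6%. Without replicate 3 of both Des-/- groups the difference of Gfra2 was -0.53 (SE 0.37, edgeR adjusted p = 0.345).

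Whether the genotype difference itself differed between the swimming states was tested by the interaction. It was -0.91 (SE 0.50, edgeR adjusted p = 0.373) for Gfra2, -0.76 (SE 0.34, edgeR adjusted p = 0.292) for Kit, -0.29 (SE 0.33, edgeR adjusted p = 0.673) for Ly6a and 0.13 (SE 0.22, edgeR adjusted p = 0.784) for Abcg2. EdgeR called none of these 4, and none of all genes (0.00%). Under an unadjusted threshold of 0.05 there was 1 member (Kit) against 16.3% of all genes, DESeq2 called 0 members, against 2.27%, and Kit alone passed the study's filter, against 13.1%. The difference of Gfra2 and Kit between genotypes is thus not shown to depend on swimming.

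The comparison of swim with non-swim asks how exercise stress goes together with the members, and Ly6a and Abcg2 stood higher with it in each genotype. In Des+/+, Ly6a was at 314 to 551 CPM without swimming and 676 to 968 CPM with it, and Abcg2 at 74.1 to 91.9 CPM and 107 to 133 CPM. In Des-/-, Ly6a was at 446 to 610 CPM without swimming and 732 to 915 CPM with it, and Abcg2 at 75.7 to 86.4 CPM and 108 to 154 CPM. In both genotypes every swim library was above every non-swim library for these genes, as it was for the share of reads in no gene, whose part in the swimming results of Ly6a, Abcg2 and Gfra2 was not tested. In Des+/+ the log2 difference was 1.02 (SE 0.24, edgeR adjusted p = 0.0814) for Ly6a, 2.02-fold, and 0.50 (SE 0.16, edgeR adjusted p = 0.128) for Abcg2, 1.41-fold. In Des-/- it was 0.73 (SE 0.23, edgeR adjusted p = 0.203) for Ly6a, 1.66-fold, and 0.63 (SE 0.16, edgeR adjusted p = 0.186) for Abcg2, 1.55-fold.

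Gfra2 took the opposite course. In Des+/+ its level was 4.96 to 7.95 CPM without swimming and 3.32 to 5.69 CPM with it, with overlap, and the log2 difference was -0.57 (SE 0.35, edgeR adjusted p = 0.376). In Des-/- it was 10.8 to 12.2 CPM without swimming and 2.28 to 6.16 CPM with it, with no overlap, and the log2 difference was -1.48 (SE 0.36, edgeR adjusted p = 0.186), a 2.80-fold lower level. The 3 Des-/- swim values rest on 16, 17 and 40 reads and the Des-/- non-swim values on 95 to 140 reads, in libraries that were deeper. Kit, the other receptor, had a log2 difference of 0.31 (SE 0.24, edgeR adjusted p = 0.478) in Des+/+ and -0.45 (SE 0.24, edgeR adjusted p = 0.351) in Des-/-, with overlap in both.

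Within each genotype none of the swimming differences passed the test. In Des+/+ edgeR called 0 of 4 tested members, against 0.0912% of all genes, with 2 of 4 under an unadjusted p of 0.05 (Ly6a and Abcg2), against 20.5%, and 2 of 4 without overlap, against 31.3%. In Des-/- edgeR called 0 of 4, against 0.0228% of all genes, with 3 of 4 under an unadjusted p of 0.05 (Gfra2, Ly6a and Abcg2), against 16.7%, and the same 3 without overlap, against 19.4%. The study's filter was passed by 1 of 4 in Des+/+ (Ly6a), against 10.3%, and by 3 of 4 in Des-/- (Gfra2, Ly6a and Abcg2), against 8.60%. DESeq2 called Ly6a (adjusted p = 0.00127) and Abcg2 (adjusted p = 0.0455) in Des+/+, against 6.06% of all genes, and Gfra2 (adjusted p = 0.00958) and Abcg2 (adjusted p = 0.0191) in Des-/-, against 2.58%. Without replicate 3 of both Des-/- groups, edgeR called Ly6a in Des+/+ (log2 1.09, SE 0.24, adjusted p = 0.0272), against 5.62% of all genes, and the log2 difference of Gfra2 in Des-/- was -1.88 (SE 0.38, edgeR adjusted p = 0.0569).

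Taking both genotypes in 1 test, with the swimming labels permuted within each genotype, gave all 12 libraries to each member. The mean difference in log2(CPM + 0.5) was 0.88 for Ly6a and 0.55 for Abcg2, and p was 0.005 for each, the smallest that 400 arrangements can give (exact permutation test, two-sided, not adjusted). For Gfra2 it was -0.999 (p = 0.01, exact permutation test), for Kit -0.11 (p = 0.64, exact permutation test) and for Isl1 -0.02 (p = 1.0, exact permutation test). Isl1 had reads in 3 of 12 libraries, so most arrangements tied and its test could not give a p under 0.05. The labels number the replicates but state no pairing. In Des-/- same-numbered libraries were taken as pairs, after the data were seen, because their deviations from group means correlated (0.36, 0.32 and 0.60). The 400 arrangements did not keep these pairs. With labels exchanged only within the pairs, p was 0.0125 for Ly6a and for Abcg2, the smallest that 160 arrangements can give, and 0.025 for Gfra2 (exact permutation tests). An edgeR contrast averaged over the genotypes, chosen after the data were seen, called Ly6a (log2 0.87, SE 0.17, adjusted p = 0.0385) and Abcg2 (log2 0.56, SE 0.11, adjusted p = 0.0410). Thus 2 of 4 tested members were called higher, against 81 of 13158 genes called higher and 0.828% called in either direction. The members were chosen with earlier results of these data known, so this count is no test of them as a set. Gfra2 (log2 -1.03, SE 0.25, adjusted p = 0.0727) and Kit (log2 -0.07, SE 0.17, adjusted p = 0.847) were not called by edgeR in this contrast.

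The same permutation for genotype, within each swimming state, gave none of Gfra2, Kit, Ly6a and Abcg2 a p under 0.05. For Isl1 most arrangements tied here too, so its test could not give one. The mean difference was 0.33 for Gfra2 (p = 0.235), 0.27 for Kit (p = 0.235), 0.11 for Ly6a (p = 0.49), 0.03 for Abcg2 (p = 0.77) and 0.15 for Isl1 (p = 0.50), all by exact permutation tests. These were 10 permutation tests in all, beside those within pairs. The edgeR contrast averaged over the swimming states called 0 of 4 members, with adjusted p-values of 0.201 to 0.826, against 39.9% of all genes.

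The summed endothelial level was also compared. The sum of 11 endothelial genes (among them Pecam1, Cdh5 and Kdr) was 9073 to 11088 CPM in Des+/+ non-swim, 11850 to 16592 in Des+/+ swim, 7734 to 12118 in Des-/- non-swim and 11707 to 17933 in Des-/- swim. Of these 11 genes, 9 lay above 0 in Des+/+ and 11 in Des-/-, with median log2 differences of 0.37 and 0.40. EdgeR called 0 of them in either genotype, against 0.0912% and 0.0228% of all genes. The swim and non-swim sums did not overlap in Des+/+ and overlapped in Des-/-. Fabp4, the fatty acid binding protein of capillary endothelium, differed by 0.76 (SE 0.30, edgeR adjusted p = 0.194) and 1.09 (SE 0.30, edgeR adjusted p = 0.187). It was the largest gene of the sum and made up much of its rise. In Des-/- the mean of Fabp4 went from 2293 to 4880 CPM and that of the sum from 10143 to 15024 CPM. In Des+/+ the means of Tek (389 and 383 CPM) and Vwf (340 and 279 CPM) were lower with swimming. Cardiomyocyte genes went in different directions, with a median of -0.79 in Des+/+ and 0.62 in Des-/- over 10 genes, 0 of them called by edgeR. The part of endothelial RNA in the levels of Ly6a and Abcg2 was not tested. For Gfra2 in Des-/-, the fibroblast sum was 12981 to 43764 CPM without swimming and 8851 to 16881 CPM with it, with 11 of 11 fibroblast genes below 0, a median of -0.88 and 0 called by edgeR, and its part was likewise not tested. Between the genotypes after swimming, the fibroblast sum was 5458 to 6825 CPM in Des+/+ and 8851 to 16881 CPM in Des-/-, without overlap. There 11 of 11 fibroblast genes lay above 0, with a median of 0.99. EdgeR called 2 of them higher, against 5.01% of all genes. In that comparison Gfra2 differed by -0.08 and Kit by -0.10.

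**Figure D3:**
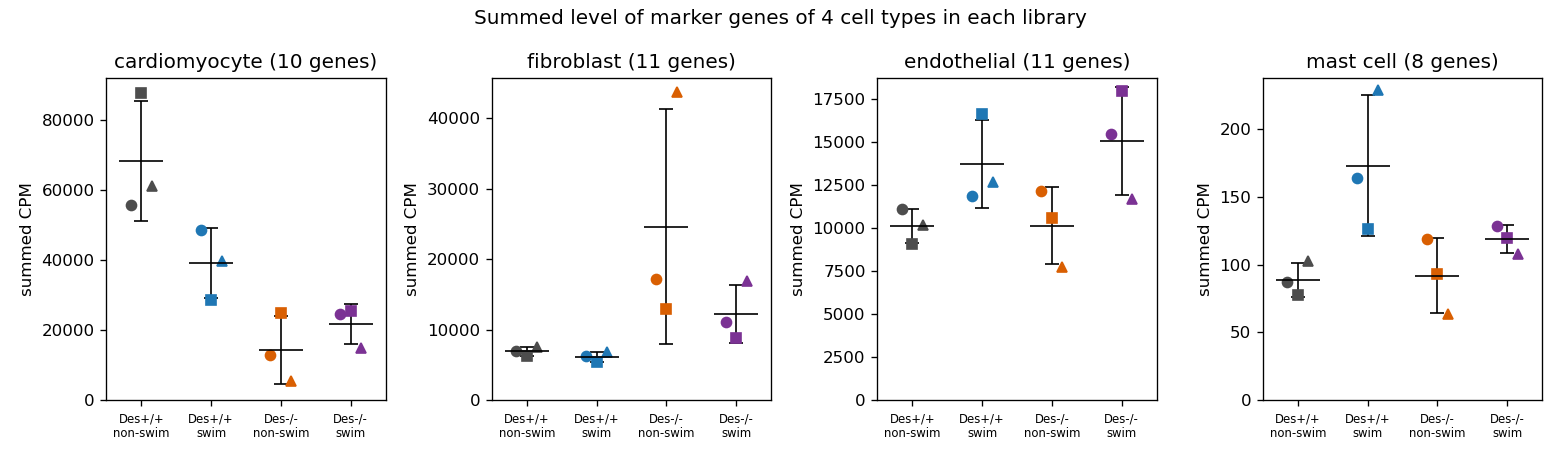
Summed CPM of 10 cardiomyocyte, 11 fibroblast, 11 endothelial and 8 mast cell genes (Kit left out of the last) in each of 12 libraries; symbols mark replicates 1 to 3 as circles, squares and triangles, and bars give the mean ± SD (n = 3). Fibroblast sums are highest in Des-/- non-swim (12981 to 43764), and endothelial sums lie at 11707 to 17933 in the swim libraries and at 7734 to 12118, with a small overlap, in the others.

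Over the 12 libraries the 4 tested members did not vary as 1 set, and Isl1 was too low to be compared. On the log2 CPM scale, Ly6a and Abcg2 had a Pearson r of 0.73, Gfra2 had an r of -0.64 with Ly6a and -0.68 with Abcg2, and Gfra2 and Kit had an r of 0.56. Kit had an r of 0.09 with Ly6a and -0.07 with Abcg2. These values describe 12 libraries of 4 groups that share genotype, swimming state and depth, and are not tests. By the order of group means, Gfra2 ran from Des-/- non-swim (11.4 ± 0.787 CPM, SD, n = 3) through Des+/+ non-swim (6.39 ± 1.497) and Des+/+ swim (4.30 ± 1.24) to Des-/- swim (4.05 ± 1.96), where the last 3 overlap with their neighbours. Kit ran from Des-/- non-swim (38.9 ± 3.01) through Des+/+ swim (30.4 ± 7.82) and Des-/- swim (28.4 ± 8.89) to Des+/+ non-swim (24.5 ± 2.99), each overlapping the next. For Ly6a the order was Des+/+ swim (865 ± 164), Des-/- swim (837 ± 94.1), Des-/- non-swim (505 ± 90.6) and Des+/+ non-swim (428 ± 119), and for Abcg2 Des-/- swim (126 ± 24.4), Des+/+ swim (117 ± 13.6), Des+/+ non-swim (83.1 ± 8.86) and Des-/- non-swim (81.2 ± 5.38). In both of these genes the only gap between neighbours lay between the swim and non-swim groups.

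The genes whose log2 CPM followed each member most closely over the 12 libraries differed from member to member. For Gfra2 they were Chst14 (r = 0.95), a dermatan sulfotransferase, Lama2 (0.93), a laminin chain, Prrc1 (0.92), Pofut1 (0.91) and Agps (0.91). For Kit they were Parva (0.93), an adhesion adaptor, Spred1 (0.92), an inhibitor of Ras signalling, Col4a1 (0.90), a basement membrane collagen, Pcdh19 (0.89) and Utp15 (0.89). For Ly6a they were Adam15 (0.95), a membrane metalloprotease, Stat2 (0.92), a transducer of interferon signals, Ccnyl1 (0.91), Cfap69 (0.91) and Tbkbp1 (0.91). For Abcg2 they were Timp4 (0.91), a metalloprotease inhibitor, Slc43a3 (0.90), Pparg (0.90), a lipid-sensing nuclear receptor, Spock2 (0.89) and Rtl8b (0.88). No gene was named for more than 1 member.

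Among the ligands, co-receptors and relatives of Gfra2, 6 of 10 genes were tested. Without swimming edgeR called 0 of 6 between genotypes, against 32.0% of all genes. Nrtn was at 10.3 to 29.3 CPM in Des+/+ and 8.22 to 12.7 CPM in Des-/- (log2 -0.85, SE 0.42, edgeR adjusted p = 0.145). After swimming 1 of 6 was called, Ret, against 10.6% of all genes. Ret, the signalling kinase, was at 26.3 to 39.8 CPM in Des+/+ and 12.8 to 19.1 CPM in Des-/-, and was lower in Des-/- by a log2 difference of -1.07 (SE 0.28, edgeR adjusted p = 0.0360). In neither genotype did swimming change a gene of this list by the edgeR test (0 of 6). Of all genes it called 0.0912% in Des+/+ and 0.0228% in Des-/-. Gdnf, Artn, Pspn and Gfral did not pass the filter on low counts.

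All 12 genes of the Kit ligand and signalling list were tested. Without swimming edgeR called 2 higher in Des-/- (14.0% of all genes) and 2 lower (18.0%), shares of the list near those of all genes. The phosphatase Ptpn6, also expressed in macrophages and other blood cells, rose by 2.62 (SE 0.67, edgeR adjusted p = 0.0132) and the adaptor Shc1 by 0.54 (SE 0.13, edgeR adjusted p = 0.0109), while the PI3-kinase subunit Pik3r1 fell by 0.71 (SE 0.16, edgeR adjusted p = 0.00652) and the phosphatase Ptpn11 by 0.64 (SE 0.14, edgeR adjusted p = 0.00596). Ptpn6 stood at 10.3 to 77.8 CPM in Des-/- non-swim, a wide spread, against 4.78 to 6.13 CPM in Des+/+ non-swim. After swimming 0 were called higher in Des-/- (5.01% of all genes) and 3 lower (5.57%), Kitl, Pik3r1 and Ptpn11. Kitl was at 490 to 758 CPM in Des+/+ and 321 to 359 CPM in Des-/- after swimming (log2 -0.84, SE 0.23, edgeR adjusted p = 0.0409), and without swimming at 348 to 538 and 259 to 425 CPM (log2 -0.36, SE 0.23, edgeR adjusted p = 0.253). With swimming 1 of 12 rose in Des+/+, Sh2b3 (LNK), an adaptor that restrains Kit and related receptors, at 130 to 132 CPM without and 226 to 270 CPM with swimming (log2 0.89, SE 0.14, edgeR adjusted p = 0.0400), and in Des-/- 0 of 12 were called. Of all genes edgeR called 0.0912% with swimming in Des+/+ and 0.0228% in Des-/-.

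In the Ly6 family 7 of 11 genes were tested, and 1 was called in any comparison: Lynx1, a relative that acts on acetylcholine receptors, was lower in Des-/- without swimming (log2 -1.26, SE 0.33, edgeR adjusted p = 0.0140). Of all genes, 18.0% were called lower in that comparison. With swimming, 6 of 7 lay above 0 in each genotype, with medians of 0.92 in Des+/+ and 0.77 in Des-/- against -0.08 and -0.01 over all genes. EdgeR called 0 of 7 in either genotype, against 0.0912% and 0.0228% of all genes. Ly6c1, which shares a stretch of sequence with Ly6a and is carried by endothelial cells, was at 409 to 574 CPM in Des+/+ non-swim and 794 to 1207 CPM in Des+/+ swim (log2 0.92, SE 0.27, edgeR adjusted p = 0.119), and at 350 to 581 and 651 to 1179 CPM in Des-/- (log2 0.93, SE 0.27, edgeR adjusted p = 0.195). Gpihbp1, which holds lipoprotein lipase on capillary endothelium, was at 165 to 267 and 479 to 607 CPM in Des+/+ (log2 1.202, SE 0.24, edgeR adjusted p = 0.0589) and at 168 to 277 and 497 to 665 CPM in Des-/- (log2 1.32, SE 0.24, edgeR adjusted p = 0.133). Of the 10 ABC efflux pumps and Abcg relatives of Abcg2, 8 were tested and 0 were called by edgeR in any of the 5 comparisons. For genotype, 32.0% of all genes were called without swimming and 10.6% after it. With swimming the medians of these 8 genes were -0.10 in Des+/+ and -0.19 in Des-/-, beside log2 differences of 0.50 and 0.63 for Abcg2 itself.

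Isl1 was near the detection limit, but most of the listed proteins it works with were counted. Of 8 partners and related LIM factors 6 were tested, and without swimming edgeR called 1 higher (14.0% of all genes) and 2 lower (18.0%): Lmo4, a LIM-only cofactor, higher in Des-/- (log2 0.52, SE 0.15, adjusted p = 0.0238), and Ssbp2 (log2 -0.58, SE 0.16, edgeR adjusted p = 0.0184) and the chromatin remodeller subunit Smarcd3 (log2 -0.84, SE 0.20, edgeR adjusted p = 0.00931) lower. After swimming 1 of 6 was called, Lmo4 (log2 0.65, SE 0.15, edgeR adjusted p = 0.0264), against 10.6% of all genes. Swimming itself changed 0 of 6 by edgeR in either genotype, against 0.0912% of all genes in Des+/+ and 0.0228% in Des-/-.

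Of the embryonic progenitor and heart field genes, 15 of 21 were tested, and in the basal comparison 9 of them were called. Called higher in Des-/- were 3, against 14.0% of all genes: Tcf21 (log2 1.27, SE 0.23, edgeR adjusted p = 0.00216), Tbx18 (0.92, SE 0.20, edgeR adjusted p = 0.00635) and Pdgfra (0.85, SE 0.23, edgeR adjusted p = 0.0153), which in the adult heart mark fibroblasts, mural cells and their precursors; Tcf21 and Pdgfra also stand on the fibroblast list above. Called lower were 6, against 18.0% of all genes: Nkx2-5, Gata4, Gata6, Hand2, Tbx5 and Hcn4, of which Nkx2-5, a cardiomyocyte transcription factor, was at 57.4 to 130 CPM in Des+/+ and 13.6 to 25.8 CPM in Des-/- (log2 -2.18, SE 0.33, edgeR adjusted p = 0.00119). Tbx20 (log2 0.26, SE 0.18, edgeR adjusted p = 0.300) and Mef2c (log2 0.12, SE 0.16, edgeR adjusted p = 0.613), also cardiac transcription factors, were not called. The study identified embryonic CPCs by flow cytometry with Kdr, Pdgfra and the member Gfra2 together. Kdr, in the adult an endothelial receptor, was at 1116 to 1576 and 933 to 1376 CPM (log2 -0.13, SE 0.30, edgeR adjusted p = 0.777). In the other 4 comparisons edgeR called 0 of 15. Of all genes it called 10.6% for genotype after swimming. It called 0.0912% for swimming in Des+/+, 0.0228% for swimming in Des-/- and 0.00% for the interaction.

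The adult stem and stromal surface markers were all tested (12 of 12). Without swimming 3 were called higher in Des-/- (14.0% of all genes) and 0 lower (18.0%): Cd44, the hyaluronan receptor (log2 1.80, SE 0.39, edgeR adjusted p = 0.00567), Thy1 (1.26, SE 0.27, edgeR adjusted p = 0.00522) and Cd34 (0.76, SE 0.23, edgeR adjusted p = 0.0273). Cd34, a surface sialomucin of blood progenitors, endothelium and fibroblasts, was at 346 to 640 CPM in Des+/+ and 769 to 903 CPM in Des-/-. After swimming 1 of 12 was called, Thy1 (log2 0.95, SE 0.27, edgeR adjusted p = 0.0450), against 10.6% of all genes. Swimming changed 0 of 12 by edgeR in either genotype, against 0.0912% of all genes in Des+/+ and 0.0228% in Des-/-.

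**Figure D4:**
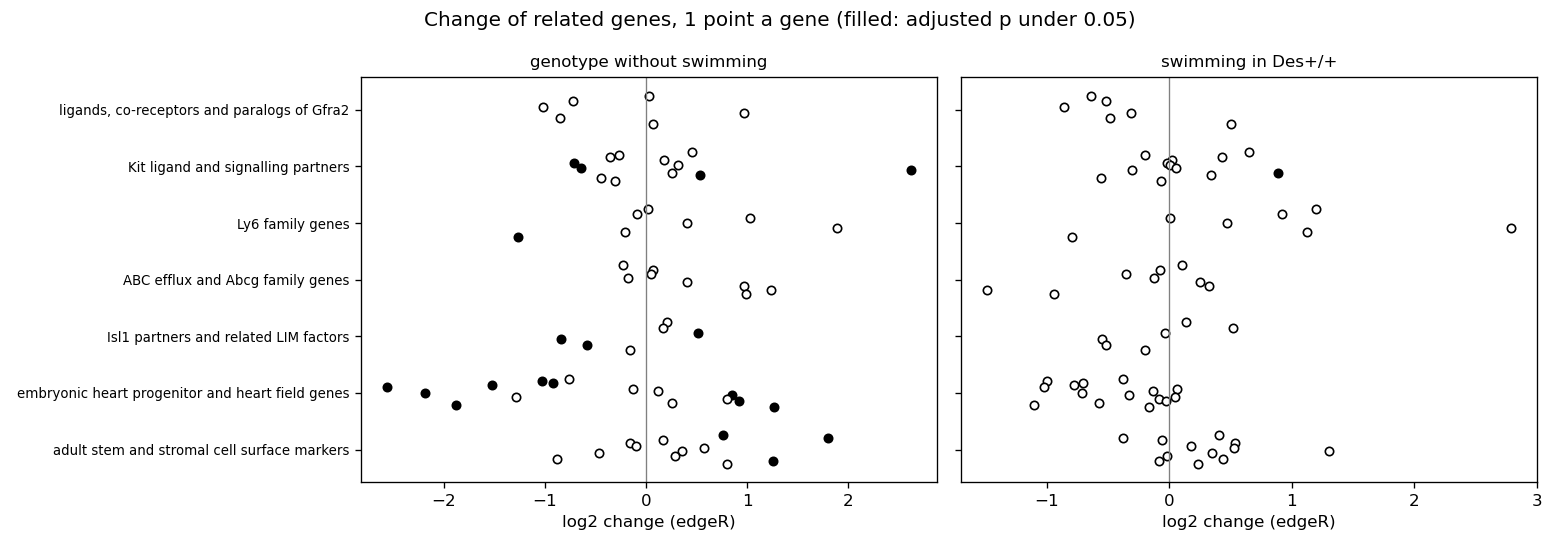
Log2 change (edgeR) of the tested genes of 7 lists related to the members, 1 point a gene, for Des-/- against Des+/+ without swimming (left) and for swim against non-swim in Des+/+ (right); filled points have an adjusted p under 0.05. On the left the heart field list holds 3 filled points above 0 and 6 below; on the right Sh2b3 (0.89) is the only filled point among these lists.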

How the data were processed

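RNA was sequenced from 12 libraries of mouse adult cardiomyocytes (poly-A RNA, 100-base single-end reads). Per the study's methods and the labels, the authors aligned the reads to GRCm38 (HISAT2 2.2.1, SAMtools 1.13) and counted them with HTSeq, and the deposited values are raw counts per gene. The methods state a strand-specific kit and reverse counting, while the labels name a different kit. Rows that name no gene held 52.4% to 78.8% of all reads and were left out. Genes passing filterByExpr (13158) were scaled by TMM and tested with edgeR 4.0.16 (quasi-likelihood; 4 group means over 12 libraries; 5 contrasts; Benjamini-Hochberg; threshold 0.05) in R 4.3.3. Exact permutation tests used log2(CPM + 0.5). DESeq2 1.42.0, other scalings, no filter, the study's filter put on edgeR results (log2 change of at least 0.6, unadjusted p, mean count of 20), a replicate block and leaving out libraries were alternatives. Levels per kb used GENCODE M21 exon lengths (21488 of 21493 genes matched). Named were the 5 members, up to 4 genes of each related list and the 5 genes most correlated with each member (prior count 2). Further called genes of these lists, Fabp4, Ly6c1, Gpihbp1 and the mast cell genes were named after their values were seen. Members and lists were chosen with earlier results of these data known. Scripts were tested on simulated data. Correlations of same-numbered libraries' deviations exceeded 0.1 in all 3 pairs only for swimming in Des-/- (0.36, 0.32 and 0.60), so numbers were taken as pairs there, and permutations within those pairs were added after the data were seen.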

Additional observations from a re-analysis of the deposited data

How the results depend on the processing

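The count of called members was 0 in each of the 5 comparisons in the main edgeR fit, and in most of them it depended on the setting. Some of the values concerned lay near the threshold, such as Kit for genotype without swimming (edgeR adjusted p = 0.0506). Others did not: Gfra2 with swimming in Des-/- had an adjusted p of 0.186 in edgeR and of 0.00958 in DESeq2. For genotype without swimming it was 1 (Kit) with DESeq2's size factors, upper-quartile scaling or no filter, and 2 (Gfra2 and Kit) with no scaling, DESeq2, the 6 libraries alone or the study's filter. All genes called ranged from 22.5% with no filter to 40.4% with no scaling. Leaving out 1 library gave 0 to 2: Kit was called without Des+/+ swim replicate 1, Des+/+ swim replicate 2 or Des-/- swim replicate 1, and Gfra2 and Kit without Des-/- swim replicate 3. With all 12 libraries edgeR called 32.0% of all genes in this comparison, and the shares in these smaller fits are not given here. For swimming, DESeq2 called 2 members in each genotype, against 6.06% of all genes in Des+/+ and 2.58% in Des-/-. The study's filter passed 1 in Des+/+ (10.3% of all genes), 3 in Des-/- (8.60%) and 1 in the interaction (13.1%). Without replicate 3 of both Des-/- groups, chosen after seeing the data, 1 was called for genotype without swimming (Kit, against 28.0% of all genes). For swimming in Des+/+ 1 was called in that fit (Ly6a, against 5.62%). With the replicate block the count was 0 in each comparison. Of all genes that fit called 31.0% for genotype without swimming and 9.95% after it. It called 0.144% for swimming in Des+/+, 0.0152% in Des-/- and 0.00% for the interaction. The count was also 0 in a blocked fit of the 6 Des-/- libraries alone, against 0.639% of all genes. There the log2 difference of Gfra2 with swimming was -1.56 (edgeR adjusted p = 0.0819) and that of Abcg2 0.62 (edgeR adjusted p = 0.0903). Why these counts differ was not tested.

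Small differences turned sign. For Abcg2, genotype without swimming was 0.072, 0.23 and 0.032 under upper-quartile scaling, no scaling and no filter, and 0.087 without replicate 3 of both Des-/- groups. For genotype after swimming, Gfra2 was 0.011 and 0.066 and Ly6a 0.050 and 0.096 under upper-quartile and no scaling, Kit was 0.038 with no scaling, and Ly6a 0.045 without both replicates 3. These 2 scalings moved the median of all genes by 0.10 and 0.26 without swimming and by 0.095 and 0.14 after it. Leaving out 1 library, Abcg2 ranged from -0.11 to 0.043 for genotype without swimming, from -0.069 to 0.20 after swimming and from -0.032 to 0.24 in the interaction, and after swimming Gfra2 ranged from -0.54 to 0.22, Kit from -0.35 to 0.12 and Ly6a from -0.20 to 0.040.

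Of the permutation tests, genotype for Abcg2 had a difference of 0.23 with no scaling (p = 0.045, exact permutation test), and Gfra2 with swimming was not called in the averaged edgeR contrast (-1.03). Leaving out 1 library, the differences ranged from -0.045 to 0.083 for Abcg2 by genotype, and by swimming from -0.21 to 0.018 for Kit and from -0.14 to 0.065 for Isl1, while Ly6a (0.78 to 0.99) and Abcg2 (0.48 to 0.61) stayed above 0 and Gfra2 (-1.16 to -0.84) below, with p from 0.005 to 0.02 (exact permutation tests). Depth limits Gfra2, with 16 to 140 reads a library, and Isl1, with 5 reads in all.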
